A study of Mus musculus with 2 samples.

Results

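The 10 core genes of the circadian clock examined here were Dbp, Nr1d1, Nr1d2, Per1, Per2, Per3, Cry1, Cry2, Arntl and Clock, with every annotated transcript form of each. They were listed by name, with no threshold on a measured value, and all 10 were found among the 55536 genes of the annotation. RNA came from the hearts of 2 female mice of the F1 hybrid B6CASTF1/J, both 25 days old, which form 1 group with replicates 1 and 2. No treatment or genetic alteration is named for either animal. Each library was made from 300 ng of total RNA with ERCC spike-in controls added. The animals carry separate numbers but a shared donor entry in the labels, so every p-value below measures the difference between these libraries and covers counting error only. The time of day at which the hearts were taken is not given in the labels.

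The mammalian clock is a loop of transcription. ARNTL (also called BMAL1) pairs with CLOCK and binds E-boxes in the promoters of the Per, Cry and Nr1d genes and of Dbp; the PER and CRY proteins then block that pair. NR1D1 and NR1D2 (REV-ERB alpha and beta) silence Arntl through a DNA element called the RORE, which ROR receptors activate, while DBP activates genes that carry a D-box. In mouse peripheral tissues, heart included, transcripts driven by E-boxes and D-boxes are high when Arntl is low, and low when Arntl is high.

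The deposited gene tables held 42966739 estimated counts in replicate 1 and 42720824 in replicate 2, and the spike-ins, which are not in these totals, took 0.518% and 0.544% of all counts in the tables. The labelled tissue was checked with 8 cardiomyocyte markers, which were all detected, and their median level was 5110 and 5210 TPM (a level per transcript length and library total) in replicates 1 and 2. Several lists of other cell types or states differed between the libraries. These lists were chosen with earlier results of these data known, so their counts describe the libraries and are not a test. All 8 genes of a glucocorticoid-induced list were higher in replicate 1, and all 8 genes of a liver list were higher in replicate 2, where Alb had 907 counts against 2 in replicate 1. Scaled counts of all 8 cardiomyocyte markers were higher in replicate 2 (median log2 ratio, replicate 1 over replicate 2, -0.12). Medians were 0.22 for 7 fibroblast markers, 0.16 for 7 endothelial, 0.42 for 5 smooth muscle and 0.33 for 6 macrophage markers. The median of all genes tested was -0.00114. The part of these differences in the values of the clock genes was not tested. In bulk tissue, fewer cells of a type and less RNA per cell cannot be told apart.

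The DNA elements that define the arms of the loop were looked for around the RefSeq starts of the members. RefSeq windows on GRCm38.p6, each with 250 bases before and 50 after a start, were held for 9 of the 10 genes, in 13 windows. Both strands were searched for the E-box CACGTG, its variant CACGTT (here called the E′-box), the D-box TTATGNAA and the RORE consensus. Of the 9 genes, 6 had at least 1 match, in 6 of 13 windows. Over the mouse, 14.9% of all 32851 promoter windows held at least 1 of these motifs. No match was found for Dbp, Nr1d2 or Clock, and Per2 was the gene without a window. The arms named below are fixed gene lists and were not drawn from these matches. A match describes letters of the reference genome in a window and is not evidence of a bound site. The alleles of the hybrid animals were not examined, so a match may not hold for both.

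Per1 and Cry1 each held the full E-box, which is present in 7.15% of all windows. In Per1 it began 166 bases before the start, and a D-box began 24 bases before it. Per1 was thus matched by both kinds of element through which the loop drives its repressors. The stretch upstream of Per1, chr11:69098699-69098947 on the plus strand, is shown with the E-box and then the D-box in capitals.
Per1 upstream: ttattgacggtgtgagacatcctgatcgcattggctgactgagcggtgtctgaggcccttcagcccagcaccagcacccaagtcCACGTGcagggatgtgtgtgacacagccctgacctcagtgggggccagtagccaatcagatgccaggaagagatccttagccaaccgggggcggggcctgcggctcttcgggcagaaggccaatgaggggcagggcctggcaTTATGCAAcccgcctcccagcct

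Per3 held 2 D-boxes, 205 and 158 bases before its start, and no E-box in the window. D-boxes were present in 3.38% of all windows. The stretch upstream of Per3, chr4:151044666-151044915 read on the minus strand, shows the pair in capitals.
Per3 upstream: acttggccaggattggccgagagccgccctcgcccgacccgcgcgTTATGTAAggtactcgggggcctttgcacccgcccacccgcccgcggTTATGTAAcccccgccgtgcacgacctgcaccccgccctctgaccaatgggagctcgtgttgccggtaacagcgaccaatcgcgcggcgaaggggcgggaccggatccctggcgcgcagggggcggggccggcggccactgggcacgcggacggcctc

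The E′-box was matched in Nr1d1, Cry1 and Cry2, against 4.68% of all windows. In Cry1 it lay 79 bases before the start on the opposite strand, so that it reads AACGTG on the strand of the gene, and the full E-box lay 60 bases before the start. In Nr1d1 it lay 28 bases before the start, also on the opposite strand. The stretches upstream of Cry1 (chr10:85185065-85185304) and Nr1d1 (chr11:98775378-98775627), both on the minus strand, carry these motifs in capitals.
Cry1 upstream: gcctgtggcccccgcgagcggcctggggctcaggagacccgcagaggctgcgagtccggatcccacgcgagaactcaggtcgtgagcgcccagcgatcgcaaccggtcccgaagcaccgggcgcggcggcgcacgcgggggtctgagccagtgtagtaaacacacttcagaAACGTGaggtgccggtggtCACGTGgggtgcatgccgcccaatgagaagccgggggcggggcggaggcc
Nr1d1 upstream: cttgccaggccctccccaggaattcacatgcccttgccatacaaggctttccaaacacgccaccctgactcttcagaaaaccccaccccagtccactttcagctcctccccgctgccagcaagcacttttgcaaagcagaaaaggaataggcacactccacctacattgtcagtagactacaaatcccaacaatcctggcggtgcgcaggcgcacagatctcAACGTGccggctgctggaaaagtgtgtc

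Among the members, Arntl was the gene with a RORE match, and 0.384% of all windows held one. It lay 27 bases after the more downstream of the RefSeq starts of Arntl, within the exon that opens the leading transcript Arntl-201. The 30 bases around it, chr7:113207528-113207557 on the plus strand, show the RORE in capitals.
Arntl RORE: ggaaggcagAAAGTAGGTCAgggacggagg

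**Figure D1:**
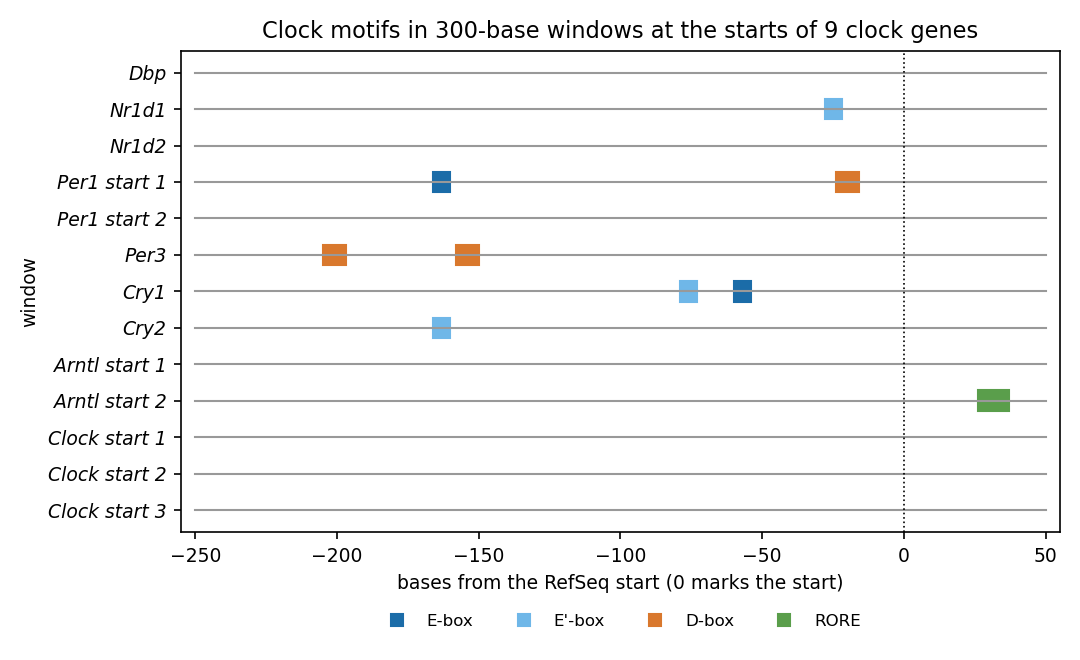
Positions of E-box, E′-box, D-box and RORE matches in the 13 RefSeq windows of 9 clock genes, in bases from each start, with 1 line per window. The 9 matches fall in 6 windows, and the RORE of Arntl is the match that lies after a start.

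Levels spanned a wide range. By the alignment-based gene tables, Dbp was highest and Arntl lowest in both hearts. Dbp, the D-box activator (chr7:45705088-45710203), had 59.0 TPM in replicate 1 (deposited credibility interval from 55.6 to 60.5) and 71.0 in replicate 2 (67.0 to 72.4). These intervals did not overlap, and replicate 2 was higher. The mean of 65.0 ± 8.47 TPM (SD, n = 2) lay above 92.3% of the 10985 protein-coding genes with at least 1 TPM in both libraries.

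The nuclear receptors that silence Arntl followed. Nr1d1 (chr11:98767932-98775333) had 49.5 TPM in replicate 1 (47.1 to 50.1) and 42.9 in replicate 2 (40.8 to 43.6). Its paralog Nr1d2 (chr14:18204054-18239127) had 44.3 TPM in replicate 1 (41.8 to 45.9) and 39.4 in replicate 2 (37.4 to 40.5). The ranges of the paralogs over the animals overlapped, although Nr1d1 was the higher in each heart. Both lay above most detected coding genes, Nr1d1 above 88.9% and Nr1d2 above 88.0%.

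The period genes, which encode the repressors that pair with cryptochromes, differed widely among themselves. Per1 (chr11:69095217-69109960) stood at 23.5 TPM in replicate 1 and at 20.98 in replicate 2, with overlapping credibility intervals. Per3 (chr4:151003652-151044665), the period gene that mice can lack with little loss of rhythm, stood at 7.65 TPM in replicate 1 and at 7.78 in replicate 2. Per2 (chr1:91415982-91459324), a core repressor of the loop, stood at 4.52 TPM in replicate 1 and at 3.37 in replicate 2. Per1 was 5.19 times Per2 in replicate 1 and 6.23 times in replicate 2, so the order Per1, Per3, Per2 held in both animals.

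Of the cryptochromes, which carry the repression of CLOCK and ARNTL, Cry2 was the more abundant. Cry2 (chr2:92403646-92434043) stood at 9.96 TPM in replicate 1 and at 10.04 in replicate 2. Cry1 (chr10:85131700-85185064), the stronger repressor of the pair in mouse cells, stood at 3.69 TPM in replicate 1 and at 3.09 in replicate 2. Cry2 was 2.70 times Cry1 in replicate 1 and 3.25 times in replicate 2.

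The activators were unequal. Clock (chr5:76209868-76304792) had 10.5 TPM in replicate 1 (9.84 to 10.9) and 8.25 in replicate 2 (7.72 to 8.68). Arntl (chr7:113207465-113314126), its partner, had 1.32 TPM in replicate 1 (1.16 to 1.71) and 0.77 in replicate 2 (0.672 to 1.07). Arntl rested on 121 and 75 estimated counts in replicates 1 and 2, and was the member that fell short of 1 TPM in a library. Clock exceeded Arntl 7.94-fold in replicate 1 and 10.7-fold in replicate 2.

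From high to low, the order of the means was Dbp, Nr1d1, Nr1d2, Per1, Cry2, Clock, Per3, Per2, Cry1 and Arntl. Neighbours whose values over the animals overlapped were Nr1d1 with Nr1d2, Cry2 with Clock, and Per2 with Cry1. Cry2 was below Clock in replicate 1 and above it in replicate 2. Between the other neighbours the animals did not overlap, and the read-based quantification gave the same order for each of them. The read-based levels of Per1 were lower, 18.3 TPM in replicate 1 and 16.9 TPM in replicate 2.

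**Figure D2:**
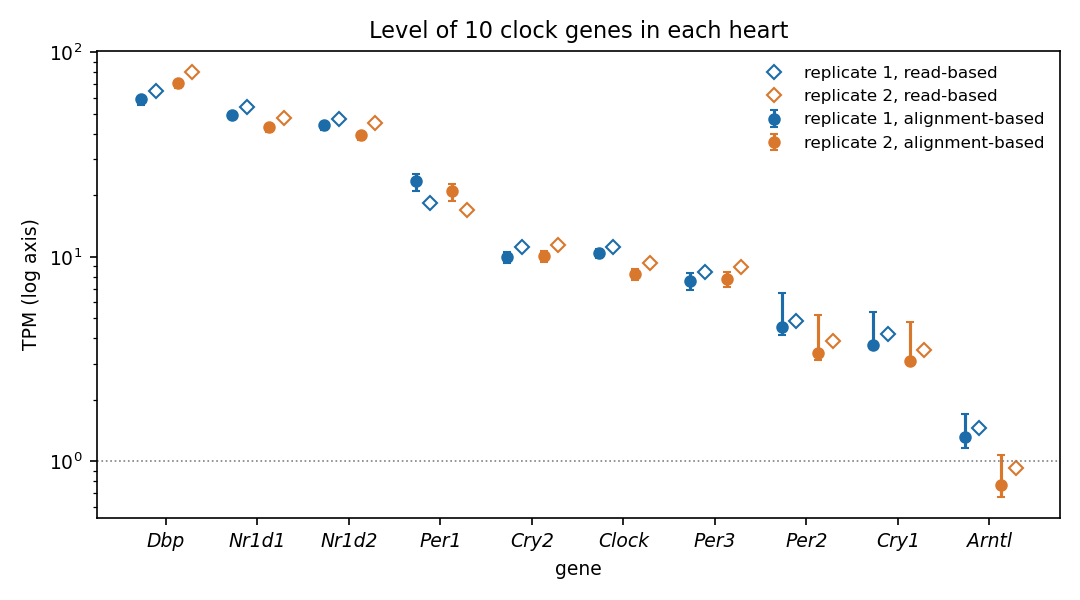
TPM of the 10 clock genes (log axis) in replicate 1 (blue) and replicate 2 (orange), alignment-based with credibility intervals (circles) and read-based (diamonds); the dotted line marks 1 TPM. Dbp, at 59.0 and 71.0 TPM, is highest and Arntl, at 1.32 and 0.77 TPM, lowest.

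Between the hearts, no member differed by a factor of 2. Estimated counts were rounded, scaled by TMM factors of edgeR and split between the libraries by an exact binomial test, adjusted by the Benjamini-Hochberg method over 15839 genes. Under the rule of an adjusted p under 0.05, a ratio of at least 2 and separate credibility intervals, 0 of 10 members were called, against 0.821% of all genes tested (0.524% higher in replicate 1 and 0.297% higher in replicate 2); 7 of 10 had an unadjusted p under 0.05. Under the adjusted p alone, 6 of 10 were called, against 20.3% of all genes tested and 24.6% of genes whose mean count reached 50. Of those 6, 4 were higher in replicate 1 (10.9% of all genes) and 2 were higher in replicate 2 (9.42%). The median size of the log2 ratio was 0.20 over the members and 0.11 over the 12566 genes whose mean count reached 50.

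Dbp was higher in replicate 2, with 2974 counts in replicate 1 and 3738 in replicate 2. The scaled ratio, replicate 2 over replicate 1, was 1.29 (95% exact interval 1.23 to 1.36; adjusted p = 1.33e-23, exact binomial test). Per3 was also higher in replicate 2, 1.17-fold (1.08 to 1.26; adjusted p = 0.00138, exact binomial test). Both belong to the arm listed as driven by E-boxes and D-boxes, although the window of Dbp held no match to either.

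Per2 and Nr1d1, of the same arm, were higher in replicate 1. Their ratios, replicate 1 over replicate 2, were 1.24 for Per2 (1.12 to 1.37; adjusted p = 0.000343, exact binomial test) and 1.09 for Nr1d1 (1.04 to 1.14; adjusted p = 0.00131, exact binomial test). Both activators were higher in replicate 1 as well. Clock had a ratio of 1.18 (1.11 to 1.25; adjusted p = 3.38e-07, exact binomial test). Arntl had the ratio farthest from 1 of the 10, at 1.57 (1.17 to 2.12; adjusted p = 0.0138, exact binomial test). From the read-based counts the call of Arntl was lost, at an adjusted p of 0.086 by the exact binomial test.

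For the remaining members the adjusted p missed the threshold. Nr1d2 had a ratio of 0.983 (0.946 to 1.02), Per1 of 1.01 (0.949 to 1.07), Cry1 of 1.12 (0.965 to 1.31) and Cry2 of 0.915 (0.846 to 0.989). The TPM of Nr1d2 had been higher in replicate 1 with separate credibility intervals, which its scaled counts did not repeat. With spike-in scaling, which moved the median log2 ratio of all genes to 0.10, Nr1d2 and Per1 were called higher in replicate 1 and Per3 was no longer called, with adjusted p of 0.0295, 0.0429 and 0.116 by the exact binomial test. Per1, which glucocorticoids can induce in mouse tissues, differed little. Fkbp5 and Zbtb16, with the largest ratios of the glucocorticoid-induced list, had 3.46 (3.10 to 3.87) and 4.22 (4.02 to 4.43). The smallest ratio of that list was 1.32 (1.26 to 1.39), and a link between these genes and Per1 was not tested.

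**Figure D3:**
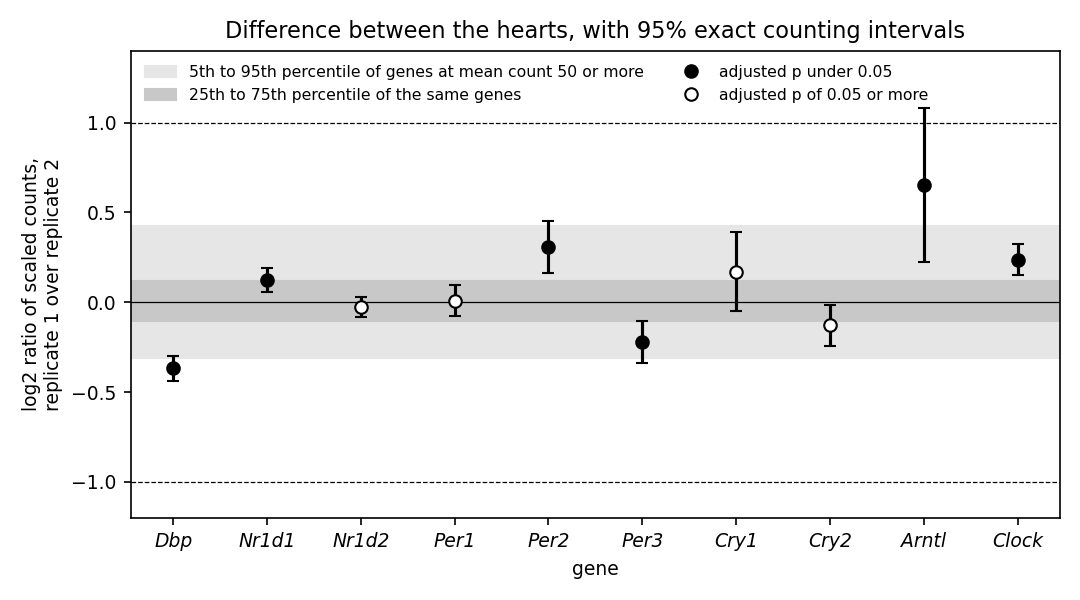
Log2 ratio of scaled counts, replicate 1 over replicate 2, for each clock gene with its 95% exact counting interval; filled points have an adjusted p under 0.05, dashed lines mark a factor of 2, and grey bands give the spread of 12566 genes whose mean count reached 50. Dbp (-0.37) and Arntl (0.65) lie outside the band from the 5th to the 95th percentile (-0.31 to 0.43).

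Ratios between genes of the same library need no scaling between libraries, and they place the arms against each other. All 6 genes of the E-box and D-box arm exceeded Arntl in both hearts, as did Cry1, Cry2 and Clock. The mean TPM of Arntl lay above only 0.0546% of the detected protein-coding genes, so nearly every detected gene would exceed it. Dbp was 44.7 times Arntl in replicate 1 and 92.2 times in replicate 2. Nr1d1 was 37.5 times Arntl in replicate 1 and 55.8 times in replicate 2. Per2, the lowest of the arm, was 3.42 times Arntl in replicate 1 and 4.38 times in replicate 2. Against Clock the arm divided, with Dbp, Nr1d1, Nr1d2 and Per1 above it in both hearts and Per3 and Per2 below it in both.

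The distance of every member from Arntl was larger in replicate 2, in ratios that share the few counts of Arntl. In counts, which carry no change of transcript length, the ratio of Dbp to Arntl was 2.03-fold larger in replicate 2 (95% exact interval 1.5 to 2.75). For Per3 the same comparison gave 1.83 (1.35 to 2.5) and for Nr1d1 1.44 (1.07 to 1.96). Cry2, outside the arm, gave 1.72 (1.26 to 2.35). Nr1d2 gave 1.6 (1.18 to 2.17) and Per1 1.56 (1.15 to 2.12), although neither gene was called between the hearts. For Per2 (0.925 to 1.74), Cry1 (0.997 to 1.96) and Clock (0.985 to 1.81) the interval included 1. Within the arm, Dbp over Nr1d1 was 1.19 in replicate 1 and 1.65 in replicate 2, a 1.4-fold larger ratio in replicate 2 (1.32 to 1.5).

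**Figure D4:**
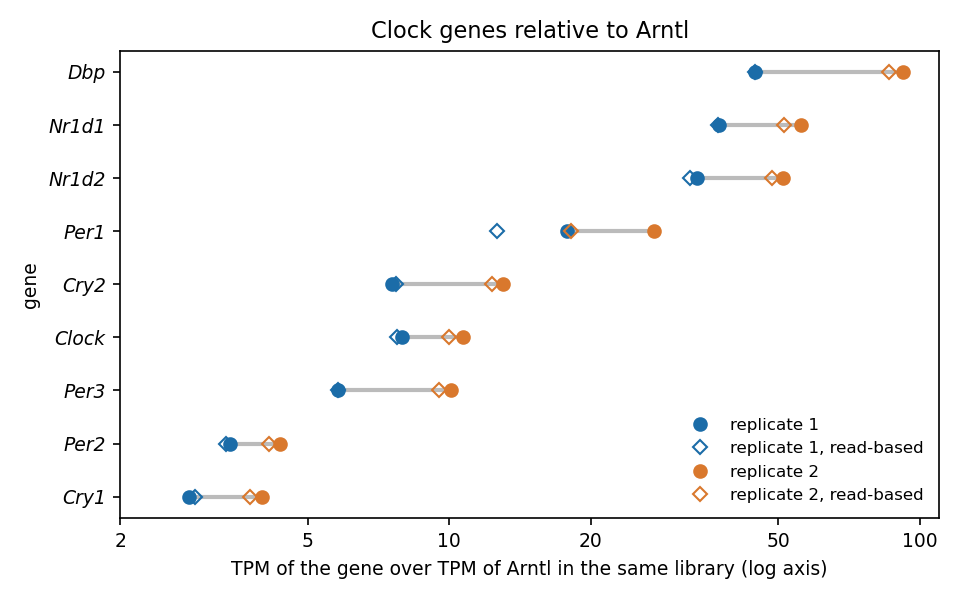
TPM of 9 clock genes divided by the TPM of Arntl in the same library (log axis), for replicate 1 (blue) and replicate 2 (orange), alignment-based (circles, joined by a line) and read-based (diamonds). Every gene lies farther from Arntl in replicate 2, with Dbp at 44.7 and 92.2.

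Taken as medians of log2 TPM, the 6 genes of the E-box and D-box arm lay above Arntl and Clock by 3.12 in replicate 1 (8.67-fold) and by 3.51 in replicate 2 (11.4-fold). The mean difference was 3.31 ± 0.276 (SD, n = 2), and 3.04 ± 0.262 in the read-based tables. In both hearts the median of the arm thus lay above that of the activators, while Per2 and Per3 lay below Clock. The median of the activators lies midway between Clock and Arntl on the log scale, so the low level of Arntl enters it. In mouse liver, Nr1d1 and Dbp reach their highs earlier than Per2, and Cry1 later still. In these hearts Dbp was 13.1 times Per2 in replicate 1 and 21.1 times in replicate 2, and 16.0 times Cry1 in replicate 1 and 23.0 times in replicate 2. Each gene has its own mean and amplitude over the day, so these ratios do not give a time, and no time series was at hand to set them against.

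Other genes of the clock, from 4 lists with 52 genes in all, were mostly expressed: 49 reached 1 TPM in both libraries. Of the 51 tested, 0 were called with a ratio of at least 2, and 22 were called by adjusted p alone, 14 higher in replicate 1 and 8 higher in replicate 2; of all genes tested, 20.3% were called by that rule, 10.9% higher in replicate 1 and 9.42% higher in replicate 2. Among 10 further transcription factors, Rora and Nfil3 were called higher in replicate 1 and Bhlhe41 was called higher in replicate 2. Bhlhe41, a repressor at E-boxes named here for its call, stood at 10.2 TPM in replicate 1 and 12.6 in replicate 2, a scaled ratio, replicate 2 over replicate 1, of 1.36 (1.26 to 1.47; adjusted p = 5.33e-13, exact binomial test). Tef, a PAR bZIP factor that shares the D-box with DBP, stood at 51.9 TPM in replicate 1 and 50.3 in replicate 2. Bhlhe40, the paralog of Bhlhe41, stood at 23.9 TPM in replicate 1 and 21.2 in replicate 2. Rora, the activator at the RORE, stood at 12.0 TPM in replicate 1 and 9.74 in replicate 2, and Nr1d1 exceeded it 4.12-fold and 4.41-fold. Npas2, which can stand in for CLOCK, stood below 1 TPM in both hearts, at 0.83 and 0.96 TPM in replicates 1 and 2.

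Against the same background of 10.9% and 9.42% for replicates 1 and 2, the kinases and ligases that set the life of clock proteins had 2 of 11 tested called higher in replicate 1 (Csnk1e and Fbxw11) and 3 called higher in replicate 2 (Csnk2a1, Prkaa2 and Ube3a). Their most abundant were Usp2, a deubiquitinase whose own RNA follows the clock, at 73.6 TPM in replicate 1 and 63.5 in replicate 2, Ube3a at 50.9 and 48.9, and Csnk2a1 at 36.6 and 39.6. Of 15 corepressors and partners, 3 were called higher in replicate 1 (Ncor1, Sfpq and Kmt2a) and 1 was called higher in replicate 2 (Cul4a), the count for replicate 2 being a share below that of all genes. Ddb1, at 63.8 TPM in replicate 1 and 56.6 in replicate 2, and Ncor1, at 48.5 and 44.9, were among their most abundant. Of 15 output genes, 7 were called higher in replicate 1 and 3 were called higher in replicate 2 (Kcnip2, Kcnh2 and Tcap), which are larger shares than those of all genes. The share called by this rule depends on count, being 20.3% of all genes tested and 24.6% of those whose mean count reached 50. A share at counts matched to the output genes was not computed. Tcap, a sarcomere protein under clock control in mouse heart, stood at 970 TPM in replicate 1 and 1172 in replicate 2, Hspa8, a chaperone, at 569 and 407, and Dgat2, an enzyme of triglyceride synthesis, at 130 and 126.

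Every member was led by the form that the annotation numbers 201. This form had the highest TPM for 10 of 10 members in both libraries and by both quantifications. The share of all genes led by their form 201 was not computed, so this count has no background here. By alignment, its credibility interval overlapped that of another form for Per1 in both libraries and for Arntl in replicate 2. For Clock in replicate 2 the intervals of the 2 highest forms met at 3.12 TPM. Over 10333 expressed genes with several forms, the quantifications named the same leading form for 75.2% in replicate 1 and 75.3% in replicate 2. The share of the leading form differed widely. By the deposited isoform percentage, Cry1-201 took 100% in both hearts. Nr1d1-201 took 98.0% in replicate 1 and 97.7% in replicate 2, and Per2-201 took 97.8% and 100%. Cry2-201 took 90.6% and 94.9%, and Arntl-201 took 85.3% and 89.4% on few reads. For Dbp, Nr1d2, Per1, Per3 and Clock, other forms took a larger part.

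By alignment, Dbp gave 2 main coding forms. Dbp-201, with 4 exons and 325 codons, took 60.8% in replicate 1 and 62.4% in replicate 2. Dbp-204, with 3 exons and 188 codons, took 26.0% in replicate 1 and 26.7% in replicate 2. In the annotation, Dbp-204 has support level 5 and Dbp-201 level 1, on a scale where 1 is the strongest. Dbp-204 leaves out the whole of exon 2 (chr7:45706606-45707016), which has 411 bases or 137 codons, so the reading frame is kept. The joins differ as follows, with the end of exon 1 in lower case and the exon that follows in capitals.
Dbp-201: aagaaccggccagctGTCTCCTGAAGGAAA
Dbp-204: aagaaccggccagctGCTTGACATCTAGGG

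The share of Dbp-204 depended on the quantification, with 12.1% in replicate 1 and 10.6% in replicate 2 from the read-based tables. It was nearly equal in the hearts by either one, while the gene as a whole was higher in replicate 2. Dbp also overlaps Sphk2 on the opposite strand over 539 bases, 18.0% of its exonic bases, and Sphk2 stood at 6.07 and 5.72 TPM in replicates 1 and 2. Nr1d1 overlaps Thra on the opposite strand over 263 bases, 8.55% of its exonic bases, and Thra stood at 39.4 and 40.5 TPM. Whether the counting used strand is not given in the sources used here, so reads in these overlaps cannot be assigned to one gene with certainty.

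Of the 10 leading forms, that of Per1 had the share that moved most between the quantifications. Per1-201, with 23 exons and 1291 codons, took 49.4% in replicate 1 and 53.9% in replicate 2 by alignment, and 70.8% and 75.5% from the read-based tables. Per1-204, an incomplete model of 496 bases, took 37.4% in replicate 1 and 35.2% in replicate 2 by alignment, and 9.32% and 7.26% from the read-based tables. It held 5.11% of the estimated counts of Per1 in replicate 1 and 4.61% in replicate 2. By alignment, the credibility intervals of Per1-201 and Per1-204 overlapped, at 4.37 to 11.8 and 6.6 to 10.8 TPM in replicate 1. In replicate 2 they were 5.82 to 11.9 and 5.42 to 9.3 TPM, so the lead of Per1-201 in TPM is uncertain there. In counts, Per1-201 held 77.8% in replicate 1 and 81.1% in replicate 2, so most reads of the gene were given to this form. Per1-206, also with 23 exons and 1291 codons, held 4.15% and 8.48% of the counts. Per1-202, which begins upstream of Per1-201, took 8.47% in replicate 1 and 5.19% in replicate 2.

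Retained introns took the largest shares in Per3 and Nr1d2. Forms annotated as retaining an intron took 33.9% of Per3 in replicate 1 and 29.8% in replicate 2, above 91.6% and 90.4% of the 6627 expressed coding genes with such a form. For Nr1d2 they took 26.7% in replicate 1 and 20.6% in replicate 2, above 86.8% and 84.1% of those genes. Among the other members, such forms took 13.2% of Dbp in replicate 1 and 9.17% in replicate 2, 9.83% and 6.80% of Clock, and 9.85% and 1.30% of Arntl, the last on few reads. They took 0% of Cry1, and none is annotated for Nr1d1, Per1, Per2 or Cry2. The median gene had 5.74% in replicate 1 and 4.32% in replicate 2. From the read-based tables the shares were 25.2% and 23.1% for Per3, above 84.4% and 84.1% of such genes. For Nr1d2 they were 19.1% and 14%, above 78.0% and 73.8% of such genes. The libraries were made from total RNA, and no poly(A) selection is named in the labels. Both genes and the median gene thus had the larger share in replicate 1, by either quantification.

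The main forms behind these shares were Nr1d2-202, at 21.4% in replicate 1 and 16.9% in replicate 2, and Per3-202, at 25.2% and 22.4%. In estimated counts, Nr1d2-202 held 9.37% of its gene in replicate 1 and 6.86% in replicate 2, and Per3-202 held 11.5% and 9.45%. Both are shorter than the leading form of their gene, which makes a share in TPM larger than one in counts. By isoform percentage, the coding form Nr1d2-201 took 70.6% in replicate 1 and 78.8% in replicate 2. Per3-201 took 50.02% in replicate 1 and 64.6% in replicate 2, which is 3.83 and 5.03 TPM. The coding form of Per3 was thus the higher in replicate 2. The gene totals of 7.65 and 7.78 TPM were nearly level, but the scaled counts of the gene were 1.17-fold higher in replicate 2. Per3-204, a form with no coding sequence, took 10.9% in replicate 1 and 2.34% in replicate 2, but 1.84% and 0% from the read-based tables.

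Clock was split between forms that encode the same length of protein. Clock-201 took 53.8% in replicate 1 and 46.5% in replicate 2, and Clock-205 took 27.7% and 33.8%. Both have 855 codons and 23 exons, but they begin and end at different bases, and Clock-205 is the longer at 9744 bases against 7478. On the minus strand, Clock-201 runs from base 76304548 to 76212177 and Clock-205 from 76304792 to 76209868. The ends thus lie farther apart than the starts. In the read-based tables Clock-205 took 17.8% in replicate 1 and 20.4% in replicate 2. Clock-204, with 854 codons, took 8.55% in replicate 1 and 10.6% in replicate 2. Its join of exons differs from that of Clock-201 by 3 bases at the start of the downstream exon, which is in capitals.
Clock-201: agtacatcaactcagCAGAGTCAACAGAGT
Clock-204: agtacatcaactcagAGTCAACAGAGTGTA

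**Figure D5:**
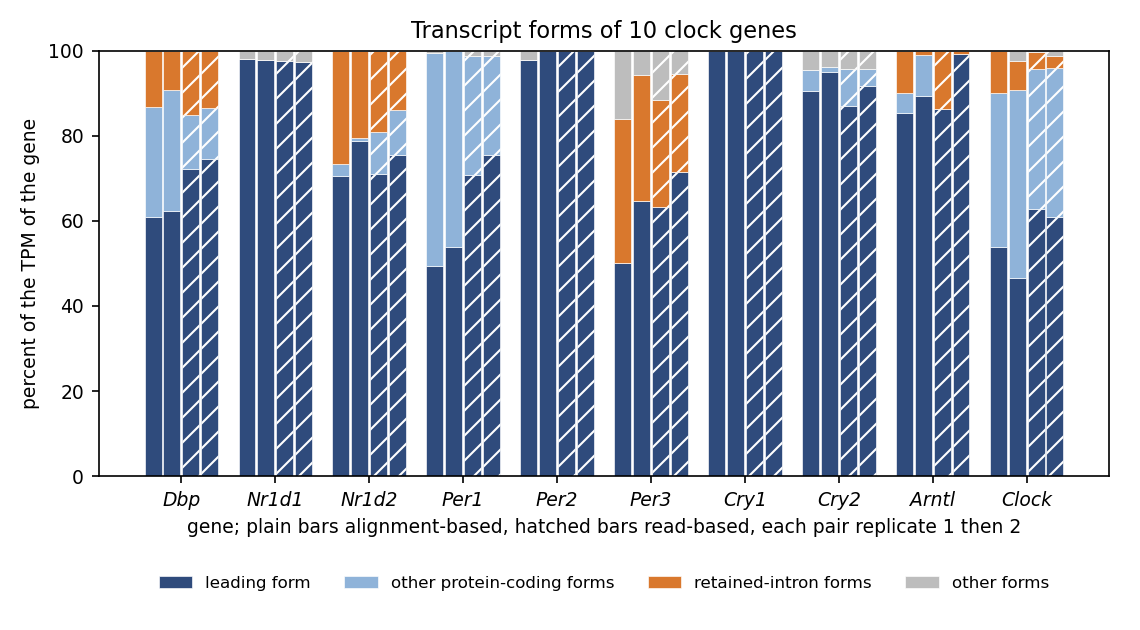
Percent of each gene's TPM in its leading form (dark blue), other protein-coding forms (light blue), retained-intron forms (orange) and other forms (grey), in replicates 1 and 2 by alignment (plain bars) and by read-based quantification (hatched bars). Cry1 is filled by its leading form, while Per3 has the largest retained-intron share by alignment, 33.9% and 29.8%.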

How the data were processed

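Total RNA of 2 mouse hearts was sequenced, and 1 library per animal was deposited. The authors' gene and transcript tables, per the file headers and labels on mm10 with the GENCODE M21 annotation, hold expected counts, TPM, TPM credibility interval bounds (treated as a score, their level not being stated) and the isoform percentage, the percent of a gene's TPM in each transcript. The deposited read-based tables hold estimated counts and TPM per transcript, summed here per gene. Both parental genomes of the hybrid were counted together. For the aligner, the counting tools and the strand setting, a name or value was not given in the sources used here.

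Expected counts were rounded, scaled by TMM (edgeR 4.0.16, R 4.3.3) and compared between the libraries by an exact binomial test with Benjamini-Hochberg adjustment over the 15839 genes whose mean count reached 10 (Python 3.11.15, scipy 1.17.1). With 1 library per animal and 1 group, p-values and 95% intervals cover counting error only. The script was tested on simulated data. TPM ratios within a library were compared between libraries by conditional exact intervals on counts. The median log2 TPM ratio of all genes tested, replicate 1 over replicate 2, was 0.09, whereas that of scaled counts was near 0, so differences were read from counts. Alternatives were DESeq2 1.42.0 size factors, total and spike-in scaling, other count minimums, read-based values, a pseudocount, and each replicate left out. Promoter windows came from RefSeq (GRCm38.p6) and exon joins from GENCODE M21 transcripts. Both give reference sequence, and the sequence of the hybrid was not examined.

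The 10 members and all gene lists were chosen with earlier results of these data known. Named were every member, its transcripts with at least 10% of the gene or leading a table, the 3 highest genes of each clock list and any called at a ratio of 2, with Alb, Fkbp5 and Zbtb16 beside the members' ratios. Other called genes of the clock lists were named after their values were seen. One gene that this rule names is not reported here. No gene was named for a like pattern, since 2 libraries give 1 ratio per gene. A further 2 listings of deposited files were not used.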

Additional observations from a re-analysis of the deposited data

How the results depend on the processing

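The count of members called at a ratio of at least 2 stayed at 0, and the other counts of members, of other clock genes and of shared leading transcripts stayed within 1.5 times, under each alternative run. The difference between the arms, 3.31 on the log2 scale, became 4.76 with Npas2 added to the activators, 2.79 with a pseudocount of 1 TPM and 2.77 with means in place of medians; without 1 replicate it ranged from 3.12 to 3.51. The log2 ratio of Nr1d2, replicate 1 over replicate 2, -0.02 with TMM, turned to 0.00567 with total counts and to 0.0754 with spike-in scaling. Without intervals, 292 genes passed the ratio of 2, against 130 with them, and 340 did from read-based counts. Members' TPM would be 2.53 and 2.60 times larger in replicates 1 and 2 over protein-coding nuclear genes. Depth limits Arntl most, at 121 and 75 counts. No paired analysis was possible because the 2 samples form 1 group.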
